A study of Caenorhabditis elegans with 24 samples.

Results

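The spp genes of the nematode Caenorhabditis elegans encode small saposin-like proteins. A set of 10 of them (spp-1, spp-2, spp-3, spp-5, spp-8, spp-10, spp-14, spp-17, spp-18 and spp-23) was taken by name from a given list, and each was matched to its WormBase identifier in both deposited count tables. These are 10 of the 46778 genes with a row. All 10 passed the filter on low counts in every fit, and the lowest raw count of any of them in any library was 52.

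RNA sequencing had been done on whole adult animals in 24 libraries, 3 for each of 8 groups. On adult day 4 the groups were ceh-60(ok1485) mutants (strain DLS357) and wild type N2. On adult day 1 they were the double mutants ceh-60(ok1485); pqm-1(rhd90) (DLS423) and ceh-60(ok1485); pqm-1(ok485) (DLS420), the single mutants pqm-1(rhd90) (DLS424), pqm-1(ok485) (DLS421) and ceh-60(ok1485) (DLS357), and N2. The 4 groups with a pqm-1 allele were deposited in one table of 12 libraries and the wild type and ceh-60 groups in the other. Each genotype was 1 strain. The labels do not say that the 3 libraries of a group came from separate cultures, so the p-values measure the spread between these libraries, which may be technical. In whole animals, fewer cells of a type and less RNA per cell cannot be told apart.

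Saposins are small proteins that, in mammals, help lysosomal hydrolases reach sphingolipids held in membranes. The same compact fold, tied together by disulfide bonds, is used by pore-forming peptides that kill microbes, among them the caenopores of C. elegans. Worms carry a large family of these genes, and several members are expressed in the intestine, where bacteria are digested and pathogens are met. The product of ceh-60 is a PBX-family homeodomain factor. The product of pqm-1 regulates transcription and binds DNA through zinc fingers.

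The libraries held between 18809461 and 32598349 counted reads, and levels are given as CPM, the usual unit of read counts relative to library size, after scaling by the trimmed mean of M-values (TMM) over all 24 libraries. The ceh-60 row was lower in every group that carried ok1485 (means of 0.667 to 1.58 CPM) than in every group without it (4.67 to 8.56 CPM). The pqm-1 row averaged 5.02 CPM in the ok485 double mutant and 5.96 CPM in pqm-1(ok485), against 10.9 CPM in day 1 wild type. With rhd90 it was not lowered, at 23.7 CPM in the double mutant and 14.9 CPM in pqm-1(rhd90), so gene-level counts do not check that allele. Markers of intestine, muscle, hypodermis, neurons, germline and sperm were all detected, and the 1 marker at 0 in a whole group was a hypodermis gene in pqm-1(rhd90).

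The genes lie on 4 chromosomes, in coordinates of WormBase release 260 as the tables give them. A cluster on chromosome X spans 5416 bases (7314969 to 7320384) and holds 5 spp genes in a row, spp-3, spp-2, spp-6, spp-4 and spp-5, with no other gene between them. Within it, on the minus strand, lie spp-3 (WBGene00004988, 7314969 to 7315353), spp-2 (WBGene00004987, 7315995 to 7316818) and spp-5 (WBGene00004990, 7319935 to 7320384). On the same chromosome but outside the cluster lies spp-14 (WBGene00004999, 7725955 to 7726383, plus strand). Chromosome IV holds spp-10 (WBGene00004995, 8477182 to 8480656), spp-8 (WBGene00004993, 8481664 to 8483710) and spp-18 (WBGene00005003, 9593667 to 9594425), all on the plus strand, with 1007 bases between spp-10 and spp-8. Chromosome I holds spp-17 (WBGene00005002, 1016403 to 1017180) and spp-23 (WBGene00021335, 1018835 to 1019229), both on the plus strand and 1654 bases apart. On chromosome III, spp-1 (WBGene00004986, 10355122 to 10355982, minus strand) shares exon sequence with umps-1 on the same strand. The command in the table header sets no option to count a read for more than 1 gene, and how reads in that shared stretch affect the spp-1 values was not tested.

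Levels per length separated the members into 4 high and 6 low ones. Over the 24 libraries spp-5 averaged 1027 CPM per kb of exon length, spp-17 averaged 885, spp-14 averaged 592 and spp-3 averaged 524. The other 6 averaged between 105 (spp-10) and 48.6 (spp-23) CPM per kb. The leading gene differed between groups. On day 4 it was spp-5, at 1720 ± 117 CPM per kb in ceh-60 mutants and 795 ± 43.5 in wild type (SD, n = 3 each), clear of spp-14 in the next place in both groups. On day 1 it was spp-17 in ceh-60 mutants (1071 ± 34.5) and in wild type (709.6 ± 37.6), ahead of spp-5 with no overlap between libraries in either group. In pqm-1(rhd90), also on day 1, spp-5 led with 1157 ± 68.6 CPM per kb, ahead of spp-17 at 908.6 ± 37.5 without overlap. In the ok485 double mutant spp-17 led with 1364 ± 10.6 CPM per kb, clear of spp-5. The libraries of spp-17 and spp-5 overlapped in the rhd90 double mutant and in pqm-1(ok485), so their order was not resolved there.

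**Figure D1:**
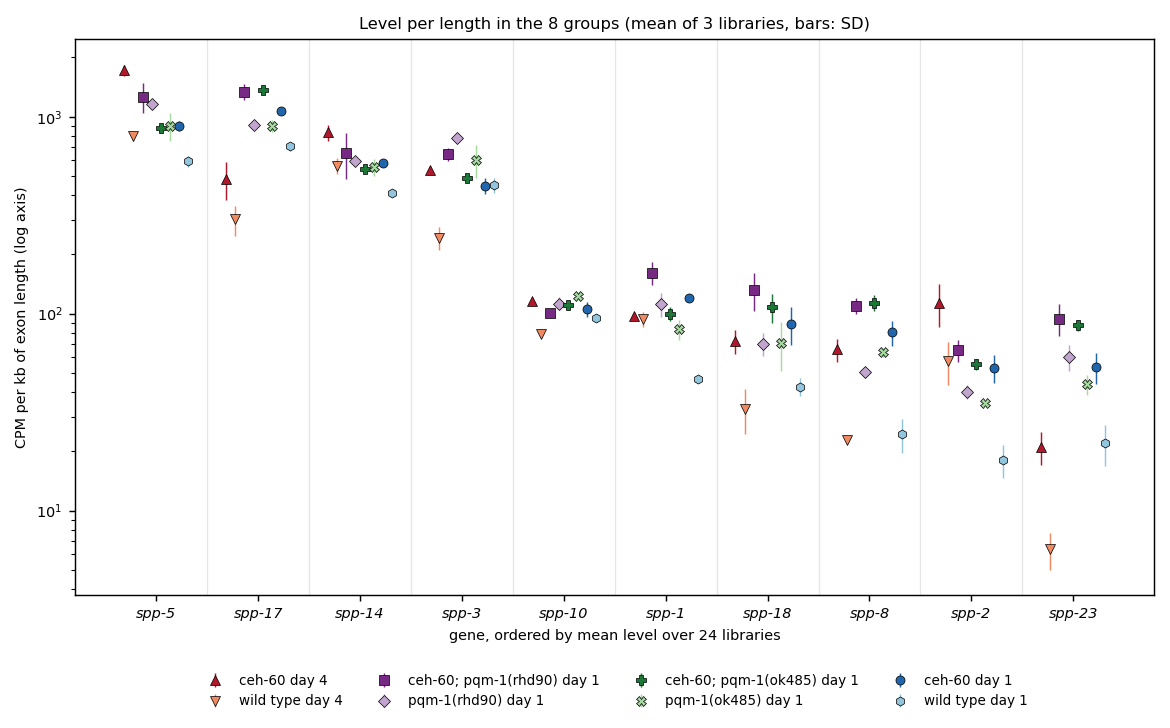
Level per exon length of each gene (horizontal axis, ordered by the mean over 24 libraries) in CPM per kb on a log axis, with 1 symbol per group for the mean of 3 libraries and bars for the SD. spp-5, spp-17, spp-14 and spp-3 sit above the other 6 genes in all 8 groups, and spp-23 has the widest span between groups, with its lowest level in day 4 wild type.

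The members also differed in how far they ranged between groups. spp-23 had the widest range, with 37.3 CPM in the rhd90 double mutant and 2.51 CPM in day 4 wild type, a ratio of 14.9. The ratio of the highest to the lowest group mean was 6.29 for spp-2, 4.98 for spp-8, 4.53 for spp-17 and 4.02 for spp-18. The narrowest was spp-10, the gene counted as the worm counterpart of human prosaposin, with a ratio of 1.55. For all 10 genes the lowest group mean was in wild type, on day 4 for 6 genes and on day 1 for 4. How many of all genes had their lowest mean in wild type was not counted. The groups with a pqm-1 allele came from the other table, which cannot be told apart from genotype.

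**Figure D2:**
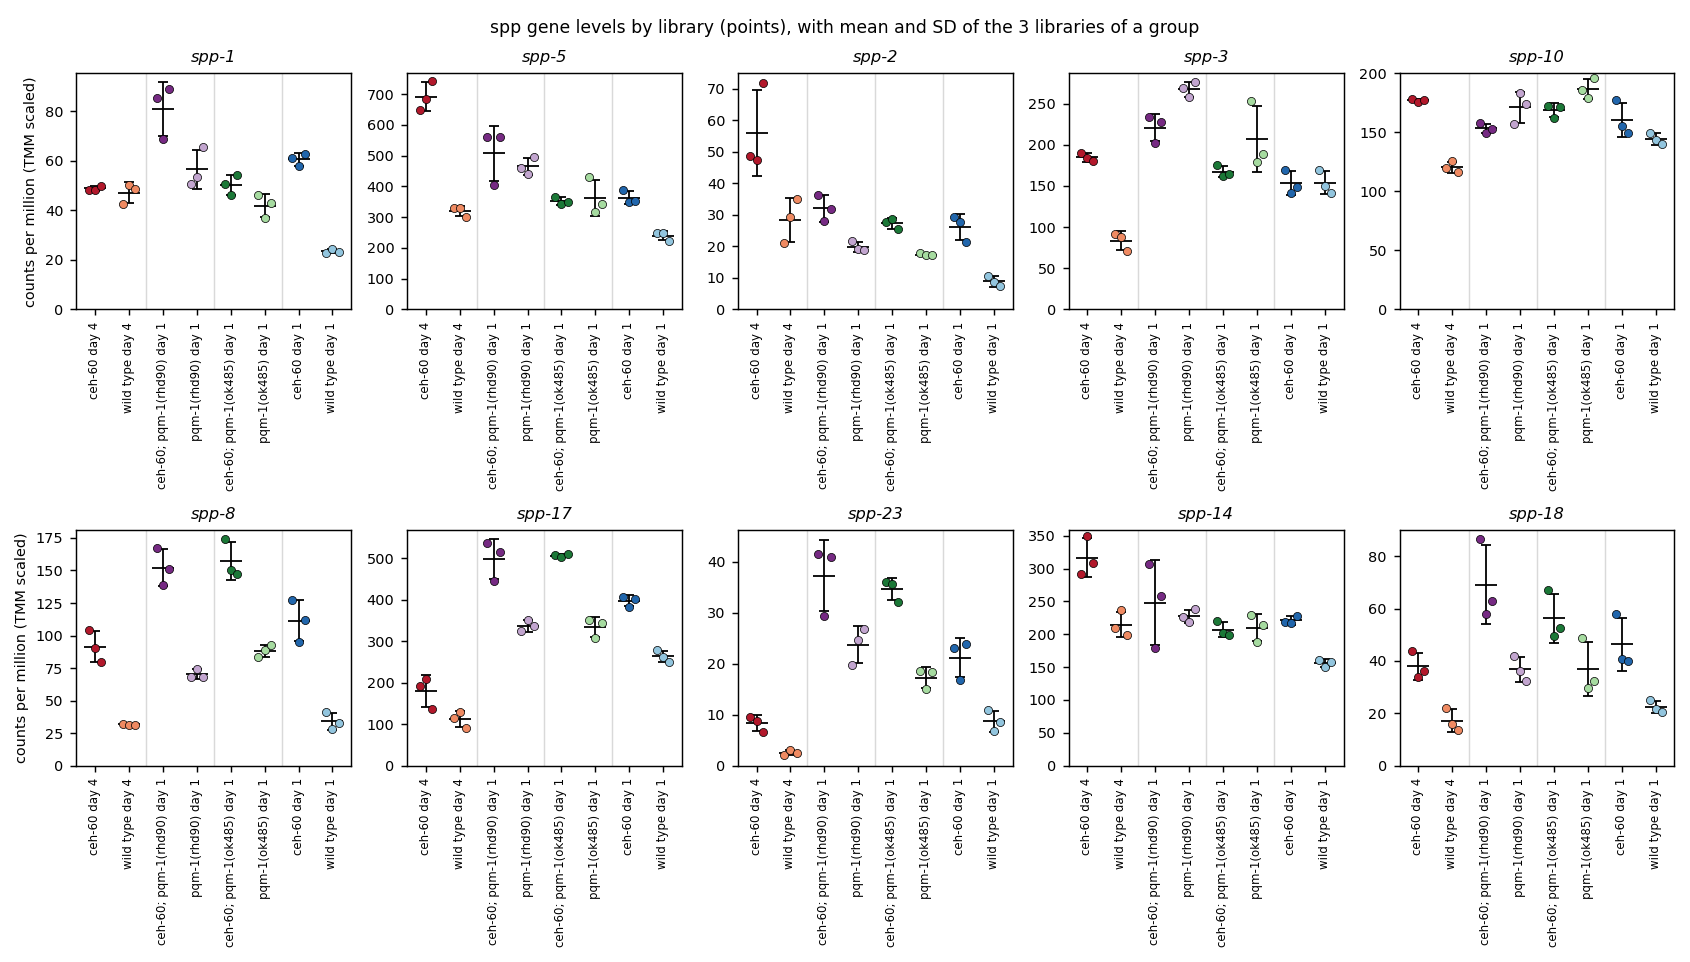
CPM of the 10 genes in each of the 24 libraries (points), with the mean and SD of the 3 libraries of a group as black bars, in 8 groups along the horizontal axis of each panel. spp-8 and spp-23 are higher with ceh-60(ok1485) in all 4 pairs of groups, while spp-3 separates ceh-60 from wild type on day 4 and not on day 1.

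In day 1 adults, 8 of the 10 spp genes rose in ceh-60 mutants and none fell. Among all 13137 genes tested 25.5% passed, 16.1% higher and 9.46% lower. The members' median log2 fold change was 0.80, against -0.03 over all genes. The largest differences were those of spp-8, spp-2 and spp-1. spp-3 and spp-10 did not pass. The 10 genes were chosen with earlier results of these data known, so the counts here describe the listed genes and not the family. Of 8 other spp genes tested, 2 rose on day 1 and 5 on day 4.

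Members whose products are known as pore-forming proteins of the intestine that act against bacteria include spp-1, spp-3 and spp-5. spp-1 measured 61.0, 57.8 and 62.8 CPM in ceh-60 mutants and 22.8, 24.5 and 23.2 CPM in wild type. The 2 groups were far apart, with every mutant library above every wild type one, and the log2 fold change was 1.34 (SE 0.07, adjusted p = 2.72e-08, edgeR quasi-likelihood test with Benjamini-Hochberg adjustment over all genes, as for every adjusted p here). spp-5 measured 387, 349 and 352 CPM in ceh-60 mutants and 248, 247 and 222 CPM in wild type, a log2 fold change of 0.57 (SE 0.06, adjusted p = 2.48e-05), also without overlap.

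The X chromosome neighbours spp-2 and spp-3 parted on day 1. spp-2 measured 29.4, 27.6 and 21.4 CPM in ceh-60 mutants and 10.7, 8.60 and 7.38 CPM in wild type, a log2 fold change of 1.53 (SE 0.23, adjusted p = 0.000271). spp-3, the next gene on the chromosome, measured 169.9, 141 and 149 CPM in ceh-60 mutants and 169, 150.3 and 142 CPM in wild type. The spp-3 groups overlapped almost fully, and its log2 fold change of -0.03 had a 95% interval of -0.22 to 0.16 (adjusted p = 0.808).

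The chromosome IV neighbours spp-10 and spp-8 differed likewise. spp-8 measured 127, 95.3 and 112 CPM in ceh-60 mutants and 40.9, 27.9 and 32.9 CPM in wild type, a log2 fold change of 1.69 (SE 0.13, adjusted p = 8.98e-07). spp-10 measured 177, 156 and 149 CPM in ceh-60 mutants and 149, 144 and 139.8 CPM in wild type, with touching groups and a log2 fold change of 0.13 (95% interval 0.01 to 0.24, adjusted p = 0.0926). The spp-10 difference passed without ceh-60 day 1 replicate 3 (0.18, adjusted p = 0.0381) and with total counts in place of TMM (0.21, adjusted p = 0.0131).

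On chromosome I both genes rose. spp-23 measured 22.99, 16.9 and 23.8 CPM in ceh-60 mutants and 10.9, 6.83 and 8.47 CPM in wild type, a log2 fold change of 1.25 (SE 0.19, adjusted p = 0.000338). spp-17 measured 407, 383 and 403 CPM in ceh-60 mutants and 278, 262 and 249.7 CPM in wild type, a log2 fold change of 0.57 (SE 0.13, adjusted p = 0.00732). Neither gene had overlapping groups. spp-18 rose by 1.03 (SE 0.17, adjusted p = 0.000681) and spp-14 by 0.47 (SE 0.07, adjusted p = 0.000249), and all 8 calls held when any 1 library was left out.

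In day 4 adults, 9 of the 10 genes rose in ceh-60 mutants and none fell, where 24.4% of all genes passed, 16.1% higher and 8.24% lower. The members' median log2 fold change was 1.07, against -0.00013 over all genes. Both genes that had not passed on day 1 now did, and spp-1 did not. The summed level of the 10 genes was 1792 ± 38.1 CPM in day 4 ceh-60 mutants and 977 ± 66.3 CPM in day 4 wild type. On day 1 the sums were 1561 ± 89.3 CPM in ceh-60 mutants and 1054 ± 57.3 CPM in wild type (SD, n = 3 each).

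spp-1 measured 48.24, 48.24 and 50.01 CPM in day 4 ceh-60 mutants and 42.5, 50.4 and 48.6 CPM in day 4 wild type. The groups overlapped, and the log2 fold change of 0.07 had a 95% interval of -0.07 to 0.21 (adjusted p = 0.444). spp-5 measured 649, 684 and 742 CPM in ceh-60 mutants and 330.5, 329 and 299.6 CPM in wild type, a log2 fold change of 1.13 (SE 0.06, adjusted p = 5.59e-08).

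spp-3 measured 190.4, 184 and 179.7 CPM in day 4 ceh-60 mutants and 91.6, 88.2 and 70.3 CPM in day 4 wild type, with no overlap. Its log2 fold change was 1.17 (SE 0.09, adjusted p = 7.62e-07). spp-10 measured 179, 176 and 178 CPM in ceh-60 mutants and 119.5, 126 and 116 CPM in wild type, a log2 fold change of 0.58 (SE 0.05, adjusted p = 3.63e-06). The 3 mutant libraries of spp-10 lay close together and well above the wild type ones.

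The largest day 4 fold change was that of spp-23, the member with the lowest level. It measured 9.57, 8.76 and 6.55 CPM in ceh-60 mutants and 2.01, 3.05 and 2.47 CPM in wild type, a log2 fold change of 1.73 (SE 0.22, adjusted p = 7.03e-05). spp-8 followed with 1.55 (SE 0.13, adjusted p = 1.79e-06), at 104.1, 90.4 and 79.9 CPM in ceh-60 mutants and 32.3, 30.9 and 31.6 CPM in wild type. The remaining 4 rose by 1.16 (spp-18), 1.00 (spp-2), 0.70 (spp-17) and 0.58 (spp-14), with adjusted p-values of 0.000271, 0.00246, 0.00209 and 3.78e-05. All 9 calls held when any 1 library was left out.

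Whether ceh-60(ok1485) had the same effect on both days was tested directly, and 4 of the 10 genes differed, against 4.04% of all genes (1.82% with a larger and 2.22% with a smaller effect on day 4). The effect was larger on day 4 for spp-3 by 1.20 on the log2 scale (SE 0.12, adjusted p = 0.000143), for spp-5 by 0.56 (SE 0.09, adjusted p = 0.00346) and for spp-10 by 0.45 (SE 0.07, adjusted p = 0.00401). It was smaller on day 4 for spp-1, with a difference of -1.26 (SE 0.09, adjusted p = 1.78e-05). All 4 calls held under every alternative and every left-out library. The other 6 did not pass, and for spp-8 the 95% interval of the difference was -0.53 to 0.26.

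**Figure D3:**
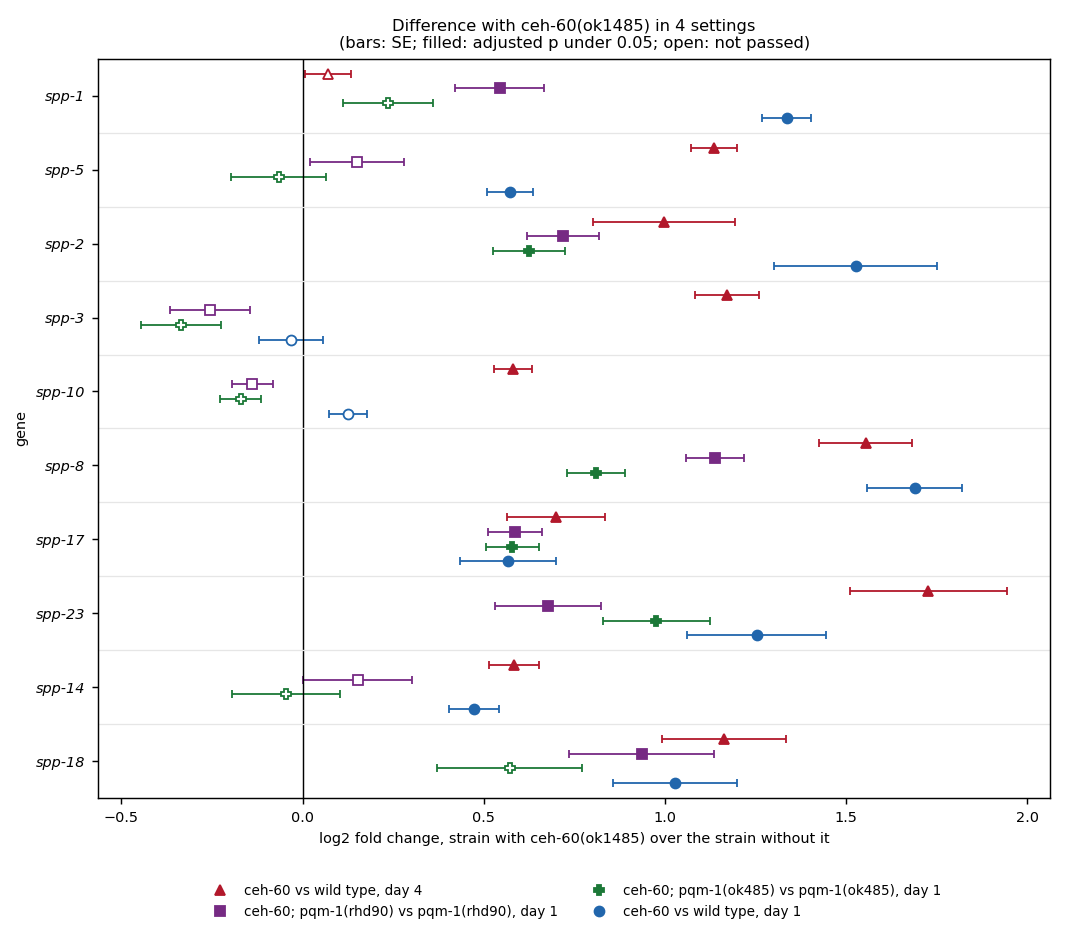
Log2 fold change of each gene (rows) with ceh-60(ok1485) over the matching strain without it, in 4 settings shown by symbol, with bars for the SE, filled symbols for adjusted p under 0.05 and open symbols for values that did not pass. spp-17 lies between 0.57 and 0.70 in all 4 settings, while spp-1 runs between 0.07 on day 4 and 1.34 on day 1.

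Between adult day 4 and day 1, the genes split by direction in both genotypes. In ceh-60 mutants 5 rose with age and 3 fell, where 52.6% of all genes passed, 28.3% higher and 24.3% lower. In wild type, 4 rose and 4 fell, where 54.8% passed, 28.4% higher and 26.3% lower. A difference with age was thus common among genes at large.

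In both genotypes the genes of the chromosome I pair fell. spp-23 averaged 8.29 ± 1.56 CPM in ceh-60 mutants on day 4 and 21.2 ± 3.80 CPM on day 1 (SD, n = 3 each), a log2 fold change of -1.32 (SE 0.19, adjusted p = 6.89e-05). In wild type it averaged 2.51 ± 0.524 CPM on day 4 and 8.73 ± 2.04 CPM on day 1 (-1.80, SE 0.22, adjusted p = 1.43e-05). For spp-17 the change was -1.12 in ceh-60 mutants (adjusted p = 1.55e-05) and -1.25 in wild type (adjusted p = 5.06e-06).

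spp-2, spp-5 and spp-14 rose with age in both genotypes. spp-2 rose by 1.13 in ceh-60 mutants (SE 0.20, adjusted p = 0.000376) and by 1.66 in wild type (SE 0.22, adjusted p = 3.39e-05). It measured 48.6, 47.4 and 71.7 CPM on day 4 and 29.4, 27.6 and 21.4 CPM on day 1 in ceh-60 mutants. In wild type it measured 21.02, 29.3 and 34.9 CPM on day 4 and 10.7, 8.60 and 7.38 CPM on day 1. No day 4 library of spp-2 fell among the day 1 libraries of its genotype. The changes of spp-5 were 0.97 in ceh-60 mutants and 0.40 in wild type, and those of spp-14 were 0.55 in ceh-60 mutants and 0.44 in wild type.

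For 3 genes the change with age was called in opposite directions. spp-1 changed by -0.28 in ceh-60 mutants (SE 0.06, adjusted p = 0.00273) and by 0.99 in wild type (SE 0.07, adjusted p = 8.91e-08). spp-3 changed by 0.30 in ceh-60 mutants (SE 0.09, adjusted p = 0.00998) and by -0.90 in wild type (SE 0.09, adjusted p = 2.18e-06). spp-10 changed by 0.18 in ceh-60 mutants (SE 0.05, adjusted p = 0.0119) and by -0.28 in wild type (SE 0.05, adjusted p = 0.000607). These are the same interaction terms as above, since the difference between the days and the difference between the genotypes rest on the same 4 groups.

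Some age calls depended on the scaling, on the fit or on 1 library. With total counts in place of TMM, which moves the median of all genes by 0.15 in ceh-60 mutants and 0.18 in wild type, spp-1 in ceh-60 mutants (-0.13, adjusted p = 0.145) and spp-10 in wild type (-0.09, adjusted p = 0.163) no longer passed. The spp-3 call in ceh-60 mutants was lost without ceh-60 day 4 replicate 1 or 2 (adjusted p of 0.0580 and 0.0653 at the extremes). The spp-10 call in ceh-60 mutants was lost without ceh-60 day 1 replicate 3 or any 1 of the 3 day 4 libraries, and with the ceh-60 groups fitted alone (adjusted p between 0.0651 and 0.0802). spp-8 and spp-18 did not pass in either genotype, but several settings gave a call. In ceh-60 mutants spp-8 passed without the filter on low counts (-0.29, adjusted p = 0.00677) and without day 1 replicate 2 or day 4 replicate 1 (-0.38 to -0.35, adjusted p of 0.0316 and 0.0366), and spp-18 passed without the filter (-0.29, adjusted p = 0.0462). In wild type spp-18 passed without the filter (-0.37, adjusted p = 0.0133), with the wild type groups fitted alone (-0.39, adjusted p = 0.0449) and without day 4 replicate 1 (-0.60, adjusted p = 0.0126).

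**Figure D4:**
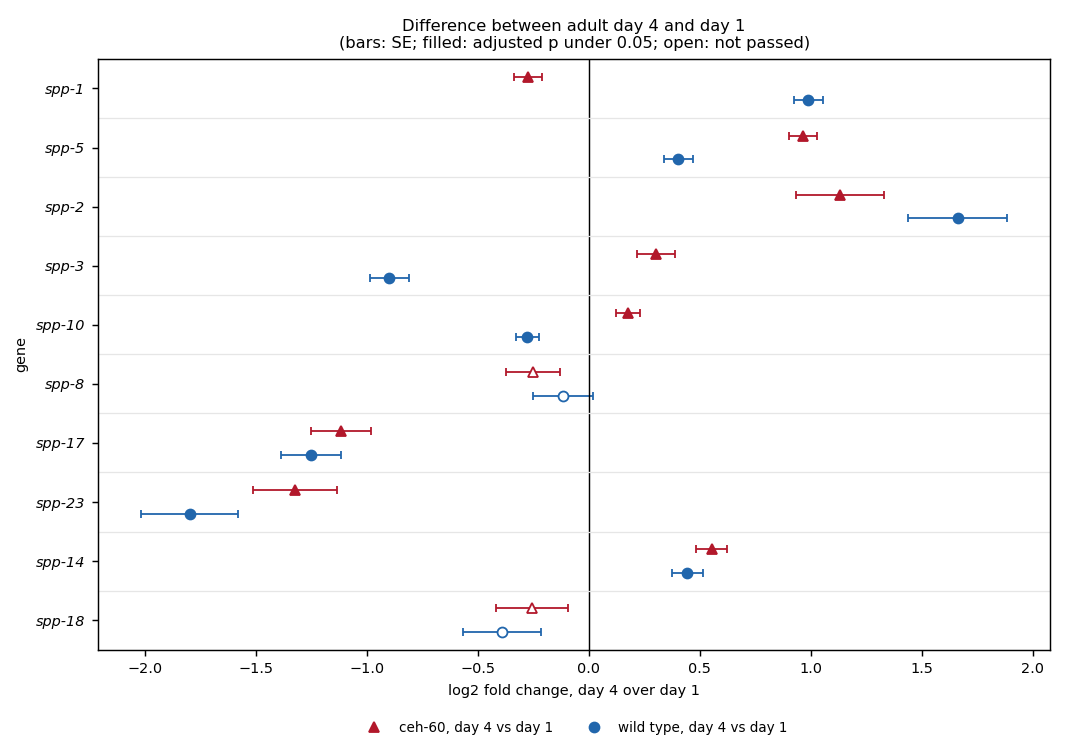
Log2 fold change of each gene (rows) between adult day 4 and day 1 in ceh-60 mutants (triangles) and wild type (circles), with bars for the SE, filled symbols for adjusted p under 0.05 and open symbols for values that did not pass. spp-17 and spp-23 lie left of 0 and spp-2, spp-5 and spp-14 right of it in both genotypes, while spp-1, spp-3 and spp-10 lie on opposite sides.

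The ceh-60 contrast was repeated on day 1 in animals that carried a pqm-1 allele. With pqm-1(rhd90), 6 of the 10 genes rose in the double mutant and none fell, where 11.9% of all genes passed, 9.79% higher and 2.07% lower. With pqm-1(ok485), 4 rose and none fell, where 8.97% passed, 4.76% higher and 4.21% lower. These counts are from the fit without a replicate block. The ok485 libraries were taken as paired by number, and with that block spp-18 also rose and spp-3 and spp-10 fell. The rhd90 libraries were not taken as paired. There spp-3 also fell with the replicate number as a block, and with the compared groups fitted alone. Without the block, spp-2, spp-8, spp-17 and spp-23 passed with both alleles. The summed level was 2001 ± 265 CPM in the rhd90 double mutant against 1675 ± 49.0 CPM in pqm-1(rhd90), and 1728 ± 61.6 CPM in the ok485 double mutant against 1502 ± 153 CPM in pqm-1(ok485).

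spp-8 measured 167, 139 and 151 CPM in the rhd90 double mutant and 68.0, 74.5 and 68.2 CPM in pqm-1(rhd90), a log2 fold change of 1.14 (SE 0.08, adjusted p = 1.68e-06). In the ok485 double mutant it measured 174, 150.2 and 147 CPM, against 83.4, 89.2 and 92.6 CPM in pqm-1(ok485), a log2 fold change of 0.81 (SE 0.08, adjusted p = 3.1e-05). Neither pair of groups overlapped.

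spp-17 rose by 0.59 with rhd90 (SE 0.07, adjusted p = 0.000155) and by 0.58 with ok485 (SE 0.07, adjusted p = 0.000237). It measured 536, 444 and 514 CPM in the rhd90 double mutant and 324, 351 and 336 CPM in pqm-1(rhd90). It measured 508, 502 and 509 CPM in the ok485 double mutant and 351, 307 and 343 CPM in pqm-1(ok485). spp-23 rose by 0.68 with rhd90 (SE 0.15, adjusted p = 0.00768) and by 0.98 with ok485 (SE 0.15, adjusted p = 0.000943). spp-2 rose by 0.72 with rhd90 and by 0.62 with ok485, with adjusted p-values of 0.000316 and 0.00135.

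In the fit without the replicate block, spp-18 and spp-1 passed with rhd90 alone. spp-18 measured 86.6, 58.0 and 63.0 CPM in the rhd90 double mutant and 41.8, 36.3 and 32.3 CPM in pqm-1(rhd90), a log2 fold change of 0.94 (SE 0.20, adjusted p = 0.00754). With ok485 its difference was 0.57 (adjusted p = 0.104), and it passed without pqm-1(ok485) replicate 1, whose 48.9 CPM stood above the 29.8 and 32.3 CPM of the other 2 (0.85, adjusted p = 0.00946). spp-1 rose by 0.54 with rhd90 (SE 0.12, adjusted p = 0.0100), and the call was lost without pqm-1(rhd90) replicate 1 or 2 or double mutant replicate 1 or 3 (adjusted p between 0.0508 and 0.0616). Its difference with ok485 was 0.24 (95% interval -0.03 to 0.51). Whether the effects with the 2 alleles differed was not tested.

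Without the block, spp-3, spp-5, spp-10 and spp-14 did not pass with either allele. The differences of spp-3 were -0.25 with rhd90 and -0.33 with ok485, and those of spp-10 were -0.14 and -0.17 in that order. In the rhd90 double mutant replicate 2 was the lowest library for all 10 genes, for spp-14 with 179 CPM beside 308 and 258 CPM. Without it spp-14 passed (0.34, adjusted p = 0.0330), and spp-10 passed without pqm-1(rhd90) replicate 1 (-0.22, adjusted p = 0.0231). With ok485, spp-3 passed without pqm-1(ok485) replicate 2 (-0.43, adjusted p = 0.0331). Same-numbered libraries of the ok485 pair deviated together, and with the replicate number as a block 7 genes passed in place of 4. The 3 gained were spp-18 (0.59, adjusted p = 6.35e-05), spp-3 (-0.32, adjusted p = 0.00988) and spp-10 (-0.17, adjusted p = 0.0488). The shares over all genes given above are for the fit without the block, and the share with it is not given here.

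The ceh-60 effect in each pqm-1 background was then compared with that in wild type on day 1, in 1 fit of 18 libraries. A constant offset between the tables cancels in that fit. A ceh-60 effect that differed between the tables cannot be told apart from one that differed with pqm-1. With ok485, 4 genes had a smaller effect and none a larger one, where 4.43% of all genes passed, 4.17% lower and 0.265% higher. The difference was -1.07 for spp-1 (SE 0.15, adjusted p = 0.000863), -0.88 for spp-2 (SE 0.18, adjusted p = 0.0141), -0.86 for spp-8 (SE 0.17, adjusted p = 0.0115) and -0.61 for spp-5 (SE 0.15, adjusted p = 0.0309). The spp-5 call was lost without any 1 of 6 libraries (adjusted p between 0.0553 and 0.102): ceh-60 replicate 1, wild type replicates 2 and 3, pqm-1(ok485) replicate 1 and ok485 double mutant replicates 2 and 3. spp-10 passed without wild type replicate 1 or pqm-1(ok485) replicate 2 (-0.35 to -0.34, adjusted p of 0.0368 and 0.0378). With the replicate number as a block, which was taken as a pairing for the ok485 pair but not for the other groups of this fit, 7 genes passed. The 3 gained were spp-10 (-0.27, adjusted p = 0.0395), spp-14 (-0.49, adjusted p = 0.0254) and spp-18 (-0.40, adjusted p = 0.0213). The 4.43% of all genes is for the fit without the block, and the share with it is not given here.

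With rhd90, 1 gene passed, spp-1, with a difference of -0.81 (SE 0.15, adjusted p = 0.0251), where 0.272% of all genes passed, 0.191% lower and 0.0809% higher. That call was lost with total counts in place of TMM (-0.77, adjusted p = 0.0650) and without any 1 of 7 libraries (adjusted p between 0.0572 and 0.103): ceh-60 replicates 1 and 3, wild type replicates 2 and 3, pqm-1(rhd90) replicates 2 and 3 and rhd90 double mutant replicate 2. spp-2 had a difference of -0.82 (SE 0.18, adjusted p = 0.0812), and passed without wild type replicate 1 or ceh-60 replicate 3 (adjusted p of 0.0254 and 0.0360). spp-8 had -0.57 (adjusted p = 0.261) and passed without wild type replicate 1 (-0.75, adjusted p = 0.0364). For spp-17 the ceh-60 effect differed from that in wild type by 0.03 with ok485 (95% interval -0.16 to 0.23) and by 0.0021 with rhd90 (95% interval -0.19 to 0.20).

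The pqm-1 single mutants and wild type came from different tables, so genotype and table cannot be told apart in their comparison. All 10 genes were higher in pqm-1(rhd90) than in day 1 wild type, where 28.2% of all genes passed, 17.6% higher and 10.5% lower. All 10 were also higher in pqm-1(ok485), where 47.7% passed, 26.7% higher and 20.9% lower. Tissue markers moved in the same comparisons. In pqm-1(rhd90), 5 of 7 intestine, 2 of 4 pharyngeal muscle, 1 of 4 hypodermis and 2 of 5 neuron markers were higher, and 1 neuron and 1 of 5 germline markers were lower. In pqm-1(ok485), 5 of 7 intestine, 4 of 4 pharyngeal muscle, 3 of 4 hypodermis, 3 of 4 sperm, 3 of 5 neuron and 1 of 4 body wall muscle markers were higher, and 1 neuron and 3 of 5 germline markers were lower. The sperm markers were low, with a summed mean of 9.27 CPM in pqm-1(ok485) and 2.30 CPM in day 1 wild type. The part of the markers in the spp values was not tested. The log2 fold changes ran between 0.22 (spp-10) and 1.42 (spp-23) with rhd90, and between 0.32 (spp-17) and 1.36 (spp-8) with ok485. The growth protocol in the labels covers the wild type and ceh-60 samples only. The spp-18 call was lost without pqm-1(ok485) replicate 1 for ok485 (adjusted p = 0.0537), and for rhd90 without wild type replicate 2 or 3 or pqm-1(rhd90) replicate 1 (adjusted p between 0.0534 and 0.0635). The spp-10 call for rhd90 was lost without pqm-1(rhd90) replicate 3 (adjusted p = 0.0673). It was also lost with the replicate number as a block, although these numbers were not taken as paired.

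Between the 2 pqm-1 alleles, 1 gene of 10 passed. spp-8 was lower in pqm-1(rhd90) than in pqm-1(ok485), with a log2 fold change of -0.36 (SE 0.08, adjusted p = 0.0196), where 7.39% of all genes passed, 1.67% higher and 5.72% lower. The call was lost without pqm-1(rhd90) replicate 1 or 3 or pqm-1(ok485) replicate 2 or 3 (adjusted p between 0.0567 and 0.0968). Same-numbered libraries deviated together in this pair too, and with the replicate number as a block 5 genes passed. spp-1 (0.40, adjusted p = 0.00283), spp-3 (0.35, adjusted p = 0.00596), spp-5 (0.34, adjusted p = 0.0201) and spp-23 (0.43, adjusted p = 0.0437) were then higher in pqm-1(rhd90). The 7.39% of all genes is for the fit without the block, and the share with it is not given here. Without the block, spp-1, spp-3 and spp-5 also passed when pqm-1(ok485) replicate 1 was left out (0.49, 0.52 and 0.48, with adjusted p-values of 0.0286, 0.00114 and 0.0195).

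Between the double mutants, 3 genes were higher with rhd90 than with ok485, where 14.3% of all genes passed, 7.89% higher and 6.37% lower. They were spp-1 (0.71, SE 0.12, adjusted p = 0.00308), spp-5 (0.54, SE 0.13, adjusted p = 0.0154) and spp-3 (0.42, SE 0.11, adjusted p = 0.0240). spp-1 measured 85.3, 68.7 and 89.2 CPM in the rhd90 double mutant and 50.8, 46.0 and 54.1 CPM in the ok485 double mutant, with no overlap. The calls of spp-3 and spp-5 were lost without rhd90 double mutant replicate 1 or 3 or ok485 double mutant replicate 2 or 3 (adjusted p between 0.0826 and 0.101 for spp-3, and between 0.0565 and 0.0766 for spp-5). Without rhd90 double mutant replicate 2, spp-14 (0.48, adjusted p = 0.00578) and spp-2 (0.35, adjusted p = 0.0201) passed as well. Between the double mutants all 4 sperm markers tested and 1 of 4 body wall muscle markers were lower with rhd90, 2 of 4 pharyngeal muscle and 2 of 5 neuron markers were higher, and 1 of 7 intestine markers passed in each direction. Between the single mutants, 2 of 4 sperm, 1 of 4 hypodermis and 1 of 5 neuron markers were lower with rhd90. Summed sperm levels were low, at a mean of 2.67 CPM in the rhd90 and 13.6 CPM in the ok485 double mutant. In the single mutants they were 1.96 CPM with rhd90 and 9.27 CPM with ok485. The part of these marker differences in the spp values was not tested.

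Neighbouring genes did not always share a pattern. Over the 24 libraries, log2 CPM of spp-17 and spp-23 had a Pearson correlation of 0.961, that of spp-8 and spp-18 was 0.928 and that of spp-5 and spp-14 was 0.911. For the neighbours spp-2 and spp-3 it was -0.0147, and for spp-8 and spp-10 it was 0.626. These values describe libraries that fall into 8 groups, so they mostly carry differences between groups. Of the other 2 genes in the X cluster, spp-4 averaged 9.42 CPM in day 4 ceh-60 mutants against 2.45 CPM in day 4 wild type, and spp-6 did not exceed a group mean of 0.341 CPM.

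The genes most like each member over the same libraries were sought among 8239 genes with a mean of at least 5 CPM. spp-8 was most like asah-1, which encodes an acid ceramidase (0.988), followed by ampd-1 (0.975) and ptr-21 (0.970). asah-1 averaged 96.9 CPM in ceh-60 mutants and 22.1 CPM in wild type on day 1, and 109 CPM in ceh-60 mutants and 19.7 CPM in wild type on day 4. spp-17 was most like sptl-2, a serine palmitoyltransferase subunit (0.981), followed by pes-9 (0.980) and C18E9.5 (0.977). spp-23 was most like scav-1, a scavenger receptor of the CD36 family (0.985), dhs-28, a peroxisomal dehydrogenase (0.982), and C14A4.6 (0.980). High values were common for these members. The 90th percentile of the correlation over the 8239 genes was 0.824 for spp-17, 0.814 for spp-23 and 0.682 for spp-8.

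The other members had lower values, and their 90th percentiles ran between 0.459 (spp-5) and 0.701 (spp-18). The leading gene was C29F7.1 for spp-18 (0.966), F54D5.3 for spp-5 (0.950), M28.10 for spp-2 (0.948), slc-17.6 for spp-3 (0.938) and F42G2.2 for spp-1 (0.930). For spp-14 it was nuc-1, a lysosomal DNase (0.905), and for spp-10 it was R07E4.1 (0.884). The next genes were apy-1 and C01H6.4 for spp-18, bgal-1 and ZK1320.2 for spp-5, ttr-41 and K06G5.1 for spp-2, mak-1 and F35C8.5 for spp-3, and hda-5 and sbp-1 for spp-1. They were tpra-1 and F54D5.3 for spp-14 and ttr-16 and osm-11 for spp-10.

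**Figure D5:**
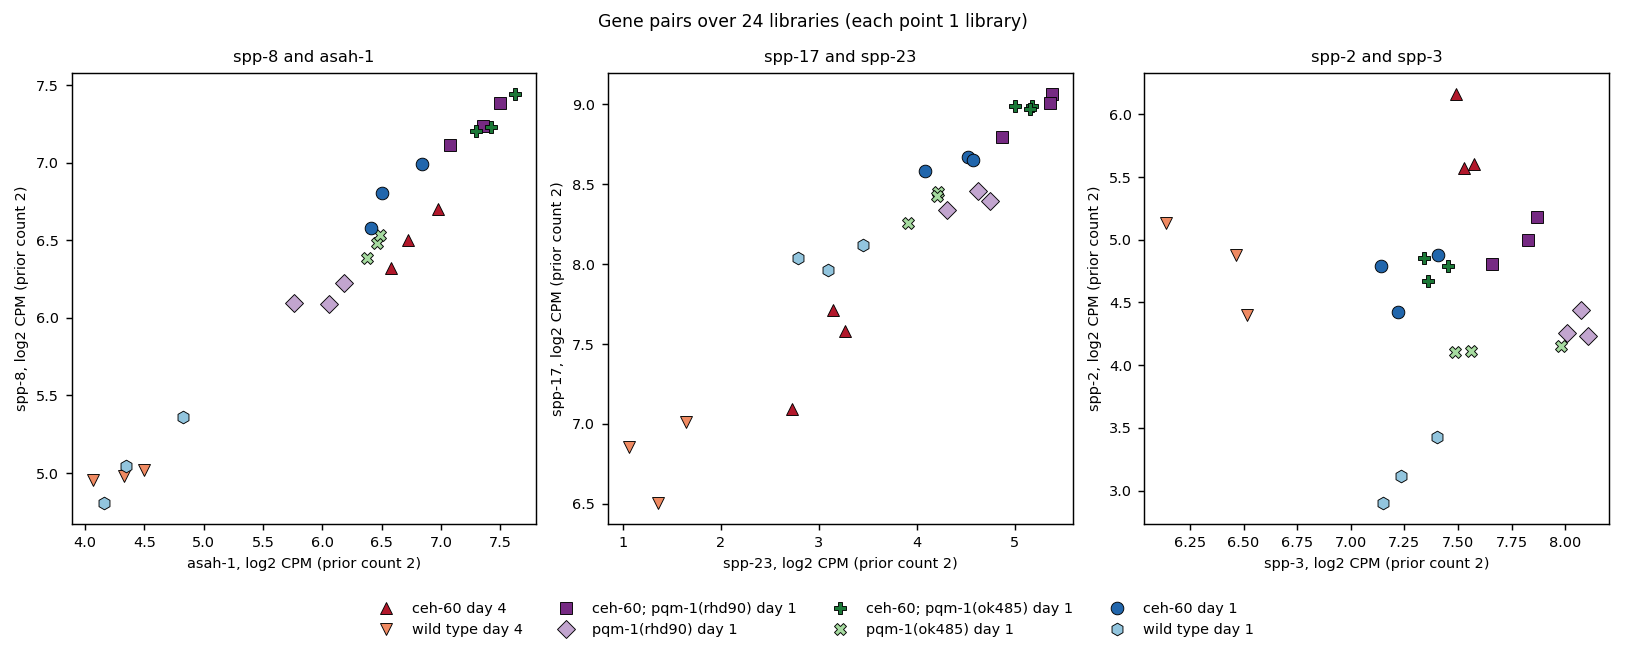
Log2 CPM (prior count 2) of 3 gene pairs over 24 libraries, 1 point per library, with colour and shape for the group. spp-8 with asah-1 (correlation 0.988) and spp-17 with spp-23 (0.961) lie along a line, while the neighbours spp-2 and spp-3 (-0.0147) do not.

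Other genes of the same family and of sphingolipid breakdown were measured in the same ceh-60 comparisons. Over all genes 16.1% were higher and 8.24% lower on day 4, and 16.1% higher and 9.46% lower on day 1. Of 17 further spp genes, 16 had a row and 8 were tested: 2 rose on day 1 and 5 on day 4, and none fell. spp-4 rose by 1.95 on day 4 and 0.95 on day 1, and spp-16 by 1.21 on day 4 and 0.92 on day 1. Among 12 sphingolipid hydrolase and ceramide genes, 8 rose on day 4 and none fell, and on day 1 3 rose and 1 fell. The day 1 counts of these 2 lists are thus near the shares over all genes. asah-1 rose by 2.496 on day 4 (adjusted p = 2.15e-07) and 2.11 on day 1 (adjusted p = 1.08e-06), and gba-4, a glucocerebrosidase-like gene, by 1.21 and 1.15 in that order of days. The gene that fell on day 1 was asah-2, by 0.67 on the log2 scale (adjusted p = 0.000125).

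Of 22 lysozymes and antimicrobial factors, 17 were tested: 9 rose on day 4 and 11 on day 1, and none fell. Their median log2 fold change was 1.18 on day 4 and 1.66 on day 1. The lysozyme gene lys-1 rose by 1.18 on day 4 and 1.64 on day 1, lys-8 by 1.59 on day 4 and lys-2 by 1.96 on day 1. Of 18 regulators of intestinal immunity, 7 rose and 1 fell on day 4, and 6 rose and none fell on day 1. They include tir-1 (0.78 on day 4), mxl-3 (0.85 on day 4), sma-6 (0.84 on day 1) and hlh-30, the worm TFEB (0.25 on day 1). The p38 kinase gene pmk-1 had a log2 fold change of -0.19 on day 4 (adjusted p = 0.0409), which did not pass with total counts (adjusted p = 0.169), without the filter on low counts (0.0940) or without any 1 of 4 libraries, ceh-60 day 4 replicates 1 and 2 and wild type day 4 replicates 1 and 2 (adjusted p between 0.0657 and 0.0845).

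Intestine markers were higher with ceh-60(ok1485) in the same pairs of groups as the spp genes. Of 7 intestine markers 6 rose on day 4 and 5 on day 1 in ceh-60 mutants, and 4 rose with rhd90 and 3 with ok485 in the double mutants, with none at 0 in any group. Their summed level in day 4 ceh-60 libraries ran between 485 and 539 CPM, against 239.7 to 244 CPM in day 4 wild type. On day 1 it ran between 998 and 1495 CPM in ceh-60 mutants and between 587 and 756 CPM in wild type. In the rhd90 double mutant it ran between 1393 and 1594 CPM, against 938 to 1127 CPM in pqm-1(rhd90), and in the ok485 double mutant between 1615 and 1914 CPM, against 1128 to 1237 CPM in pqm-1(ok485). The median log2 fold change of the 7 intestine markers was 0.87 on day 4 and 0.96 on day 1, against 1.07 on day 4 and 0.80 on day 1 for the 10 spp genes. Between double and single mutants, the markers' median was 0.45 with rhd90 and 0.36 with ok485. For the 10 spp genes it was 0.56 with rhd90 and 0.40 with ok485. Whether the medians of the members and the markers differed was not tested. elt-2 encodes the GATA factor that defines the intestine. Its log2 fold change was 0.36 on day 4 (adjusted p = 0.0487) and 0.30 on day 1 (adjusted p = 0.0857). elt-2 was not among the genes run under the alternatives, so whether its day 4 call holds there was not tested.

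Markers of other tissues differed between ceh-60 mutants and wild type as well. All 4 body wall muscle markers rose in ceh-60 mutants on day 1, with summed levels of 1478 to 2028 CPM in ceh-60 mutants and 886 to 1266 CPM in wild type, and none of the 4 passed on day 4. All 4 pharyngeal muscle markers rose on day 1 (15.1 to 23.2 CPM in ceh-60 mutants, 8.47 to 11.6 CPM in wild type) and 2 of 4 on day 4. The summed hypodermis level on day 1 was 756 to 1094 CPM in ceh-60 mutants and 405 to 652 CPM in wild type, without overlap. Of the 3 hypodermis markers tested, however, 1 rose and 2 did not pass, with a median log2 fold change of -1.06. The sum thus does not stand for every marker of that list. On day 4, 2 of the 3 sperm markers tested fell and 1 of 5 neuron markers rose. The sperm calls rest on low counts. The 5 sperm markers together averaged 2.40 CPM in day 4 ceh-60 mutants and 4.17 CPM in day 4 wild type. No germline marker passed on either day. With a pqm-1 allele present, the 1 marker outside the intestine list that passed between double and single mutants was a pharyngeal muscle gene, lower with ok485.

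With age the marker lists shifted too. All 4 body wall muscle markers fell in both genotypes, with summed levels of 402 to 477 CPM on day 4 and 1478 to 2028 CPM on day 1 in ceh-60 mutants, and 357 to 416 CPM on day 4 and 886 to 1266 CPM on day 1 in wild type. The summed hypodermis level averaged 72.7 CPM on day 4 and 972 CPM on day 1 in ceh-60 mutants, and 57.2 CPM on day 4 and 531 CPM on day 1 in wild type. Of its 3 tested markers, 2 rose and 1 fell with age in ceh-60 mutants, and 1 fell in wild type. Of 7 intestine markers, 3 rose and 4 fell in ceh-60 mutants, and 2 rose and 4 fell in wild type. Of 5 neuron markers, 2 rose in ceh-60 mutants and 3 in wild type. Of 5 germline markers, 2 rose and 1 fell in each genotype. In ceh-60 mutants 1 of 4 pharyngeal muscle and 1 of 3 tested sperm markers passed in each direction. In wild type 1 sperm marker rose and no pharyngeal muscle marker passed. Over these 4 groups the mean of the summed sperm level ran between 2.30 and 4.17 CPM, both in wild type. Over all genes, 52.6% passed with age in ceh-60 mutants and 54.8% in wild type. The part of all these marker differences in the spp values was not tested.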

How the data were processed

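The authors deposited raw read counts per gene in 2 tables of 12 libraries each; per the file headers they were made with featureCounts 1.5.2 on the gene set of WormBase release 260, and the submitters' processing notes name STAR 2.5.4, featureCounts and Subread. Per the labels' protocols, libraries came from 1 µg of total RNA with a kit that does not mark strand. The header command sets no option for strand, multi-mapping reads or reads in overlapping genes, so such reads limit the counts of overlapping genes. Sequences were not used here.

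Counts were tested in R 4.3.3 with edgeR 4.0.16 (filterByExpr by group, TMM, quasi-likelihood F-test, Benjamini-Hochberg over all genes tested, threshold 0.05). There were 3 fits: wild type and ceh-60 on both days (13137 genes, 8 residual degrees of freedom), the 4 pqm-1 groups (13324 genes, 8) and all 18 day 1 libraries (13589 genes, 12). The SE of a log2 fold change is its size divided by the root of F, and intervals cover 95%. CPM used 1 TMM scaling over 24 libraries. The script was tested on simulated data. Replicates of 1 group differed by more than sampling noise in all 24 pairs.

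The members, lists and markers were chosen with earlier results of these data known. Named beside the members are the mutated genes, up to 2 rising and 2 falling genes per list with the smallest p in the ceh-60 comparisons, and per member the 3 other genes with the highest Pearson correlation of log2 CPM (prior count 2, mean of at least 5 CPM). spp-27 and the marker opt-2 had no row of that name. Alternatives were RLE size factors, total counts, no filter, DESeq2 1.42.0, fits of the compared groups alone, a replicate block and each library left out. Same-numbered libraries were taken as paired where all 3 correlations of their deviations from the group means exceeded 0.1. This held for the ok485 double mutant with pqm-1(ok485) (0.486, 0.446 and 0.176) and for pqm-1(rhd90) with pqm-1(ok485) (0.472, 0.386 and 0.124). It did not hold for the rhd90 double mutant with pqm-1(rhd90), where replicate 3 had 0.00943 beside 0.382 and 0.380. The labels give the numbers but no shared batch.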

Additional observations from a re-analysis of the deposited data

Results flagged for a closer look

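For 9 results, the ceh-60 effect differed between settings by the test of the difference itself. Between day 4 and day 1 the difference in log2 fold change was 1.20 for spp-3, 0.56 for spp-5, 0.45 for spp-10 and -1.26 for spp-1. Between pqm-1(ok485) and wild type animals on day 1 it was -1.07 for spp-1, -0.88 for spp-2, -0.86 for spp-8 and -0.61 for spp-5. Between pqm-1(rhd90) and wild type animals it was -0.81 for spp-1. spp-1 thus passed in all 3 such tests. Its rhd90 call was lost with total counts and without any 1 of 7 of the 12 libraries. The spp-5 call with ok485 was lost without any 1 of 6 of the 12. The 3 tests share the wild type and ceh-60 libraries of day 1, where spp-1 averaged 60.5 ± 2.53 CPM in ceh-60 mutants and 23.5 ± 0.883 CPM in wild type (SD, n = 3 each). What these differences arise from was not tested.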

How the results depend on the processing

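Of 1730 member values under the alternatives, 1584 kept their direction and their side of the threshold, 45 lost a call, 62 gained one and 39 changed sign, none of these a value that had passed. Every ceh-60 call on either day (9 on day 4, 8 on day 1), and all 4 calls of the difference between days, held in each alternative. Counts that moved by more than 1.5 times were: with the ok485 allele (4 genes), 7 with the replicate block; between the single pqm-1 alleles (1 gene), 4 without the filter, 5 with the replicate block and 5 with DESeq2, and 0 to 4 with a library left out; between the double mutants (3), 5 with the block and 1 to 5 with a library left out; for the ok485 difference of effects (4), 7 with the block; for the rhd90 difference of effects (1), 0 with total counts, 3 without the filter, 4 with the block, 2 with DESeq2 and 0 to 3 with a library left out. The block moved no other count by that much: 9 and 8 for ceh-60 on day 4 and day 1, 4 for their difference, 10 and 9 with age in ceh-60 and in wild type, 7 for rhd90, and 9 and 10 for rhd90 and ok485 against wild type; these numbers were not taken as paired. Among them the block ended the call of spp-10 for rhd90 against wild type (0.091, adjusted p = 0.408) and gained spp-8 and spp-18 with age in ceh-60, spp-18 with age in wild type and spp-3 with rhd90. Other calls gained were, without the filter, spp-8 and spp-18 with age in ceh-60, spp-18 with age in wild type, spp-3 and spp-18 with ok485, spp-1, spp-3 and spp-23 between single alleles, spp-14 for the ok485 difference of effects and spp-2 and spp-8 for the rhd90 one; with DESeq2, spp-3 and spp-18 with ok485, spp-1, spp-3, spp-5 and spp-23 between single alleles and spp-2 for the rhd90 difference; with only the compared groups, spp-18 with age in wild type, spp-3 with rhd90, spp-10 between double mutants and spp-14 for the ok485 difference; and with total counts, spp-10 on day 1, spp-18 with ok485 and spp-10 for the ok485 difference. The summed level in day 4 ceh-60 mutants was 2008 CPM with total counts and 1842 with TMM within a table (1792 as reported), and in pqm-1(rhd90) it was 1551 and 1619.7 (1675 as reported). Values under the threshold that changed sign with another scaling were, with total counts, spp-3 on day 1 (0.056), spp-8 with age in wild type (0.064), spp-5 (0.026) and spp-14 (0.048) with ok485, and spp-17 between double mutants (0.0021). spp-17 between single alleles was 0.00098 with RLE and 0.0071 with DESeq2, and its rhd90 difference of effects -0.028 without the filter and -0.0016 with the block. With a library left out, the uncalled values that crossed 0 ran over -0.10 to 0.037 (spp-3, day 1), -0.017 to 0.093 (spp-1, day 4), -0.0063 to 0.14 (spp-14), -0.035 to 0.26 (spp-17) and -0.034 to 0.32 (spp-18) for the difference between days, -0.23 to 0.039 (spp-8, age in wild type), -0.16 to 0.087 (spp-5) and -0.12 to 0.032 (spp-14) with ok485, -0.042 to 0.34 (spp-14) with rhd90, -0.076 to 0.033 (spp-17) and -0.19 to 0.23 (spp-18) between single alleles, -0.065 to 0.082 (spp-17) and -0.11 to 0.047 (spp-8) between double mutants, -0.066 to 0.054 (spp-17) for the ok485 difference of effects, and -0.062 to 0.078 (spp-17), -0.30 to 0.087 (spp-18) and -0.43 to 0.082 (ceh-60) for the rhd90 one. The cause of these moves was not tested. With 3 libraries a group, differences as small as those of spp-10 on day 1 were at the limit of what passed.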
